A study of Arabidopsis thaliana with 6 samples.

Results

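Genes encoded in the mitochondrial genome were followed in RNA sequencing of *Arabidopsis thaliana* accession Col-0, in the splicing mutant *brr2a*-2 and in its wild type, Col. The gene count table held 146 rows with a mitochondrial identifier, which starts with ATMG, among 28775 rows in all. The 64 rows with 10 or more counts summed over the 6 libraries are described here. The remaining 82 rows lay under this limit, 65 of them with 0 counts in every library. The nearest rows on either side of the limit had totals of 13 and 14 counts inside it and of 8 and 6 counts outside it.

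The *brr2a*-2 plants, labelled as *cao* mutant, carry a missense substitution in BRR2a, an RNA helicase of the nuclear spliceosome, and Col carries no mutation. Both genotypes were grown in parallel in short days without treatment and harvested at 15 days, 1 h before darkness, with 3 libraries each. The mutant is a single line. The replicates are labelled as biological, but whether they were separate cultures is not stated, so p-values measure the spread between these libraries. The labels name rosette leaves, while the study's methods name seedlings.

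Plant mitochondria keep a small genome of their own. It encodes some subunits of the respiratory chain and of ATP synthase, proteins that attach heme to cytochrome c and a few ribosomal proteins. It also holds genes for a few further proteins, such as *matR* and *mttB*, and for ribosomal and transfer RNAs. Most mitochondrial proteins are encoded in the nucleus, as are the RNA polymerases that transcribe the mitochondrial genome. So are most factors that splice its group II introns. These introns are not substrates of the nuclear spliceosome. In *Arabidopsis* Col-0 a large piece of mitochondrial DNA also lies inserted in nuclear chromosome 2, with near-identical copies of many mitochondrial genes.

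Gene counts summed to between 18692830 and 23184873 in *brr2a*-2 and to between 19468030 and 29830638 in Col, with Col replicate 1 the deepest library. Chloroplast genes took 43.6% ± 3.18 of the counts in *brr2a*-2 and 43.4% ± 1.43 in Col (SD, n = 3 each). The leaf markers *RBCS1A* and *LHCB1.3* were abundant, with summed levels of the 3 leaf markers between 8865 and 10707 CPM in *brr2a*-2 and between 5144 and 14915 CPM in Col. CPM are counts relative to the library total, scaled with TMM factors. The 6 root markers summed to between 2160 and 3493 CPM in *brr2a*-2 and to between 1119 and 3481 CPM in Col, nearly all of it from *PYK10*, and the endodermal gene *CASP1* had 9.0004 ± 1.66 CPM in *brr2a*-2 and 5.55 ± 1.76 CPM in Col (SD, n = 3 each). Of the root markers, *NRT2.1* was at 0 in every *brr2a*-2 library, against 25, 22 and 3 counts in Col. The 5 markers of dividing cells summed to between 25.3 and 49.8 CPM in *brr2a*-2 and to between 29.3 and 60.6 CPM in Col.

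Whether a read of a mitochondrial transcript can be placed depends on the sequences, so these come first. Of 38 protein-coding entries of the mitochondrial genome in the TAIR10.1 reference, 26 matched chromosome 2 over at least 90% of their length, 5 matched over a part and 7 had no match, among which an entry of *nad5* with 22 bases was too short for the search. Among the genes with no match over an entry were *cox1*, *nad9*, *nad4L*, *atp4* and *ccmB*. The gene *atp9*, which encodes the subunit that forms the rotor ring of ATP synthase, shows the closest case. Its 225 bases, at MT:270961-271185 on the minus strand, are the same as those of its copy at chr2:3251856-3252080. Capitals mark the start and stop codons.

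atp9: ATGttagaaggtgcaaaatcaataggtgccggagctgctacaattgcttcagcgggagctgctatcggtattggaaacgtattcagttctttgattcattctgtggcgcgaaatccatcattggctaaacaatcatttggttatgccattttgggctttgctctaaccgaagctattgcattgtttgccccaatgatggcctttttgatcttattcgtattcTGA

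The gene *ccmFN2*, for a part of the machinery that attaches heme to cytochrome c, shows the other case, in which the copies can be told apart at a single place. Its coding sequence matched 612 bases of the mitochondrial genome and 611 bases of chromosome 2. The difference is a run of A. It is 4 bases long within the window shown at MT:291773-291866 and 3 bases long within the window at chr2:3273737-3273829, both on the plus strand. The run is in capitals, and the sequences outside it are identical over the whole gene.

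ccmFN2: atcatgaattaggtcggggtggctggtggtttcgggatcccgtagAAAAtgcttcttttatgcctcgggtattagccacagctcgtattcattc
ccmFN2 copy: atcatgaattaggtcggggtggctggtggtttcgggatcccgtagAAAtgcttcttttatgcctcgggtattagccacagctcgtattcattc

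A read that does not span this run has the same letters in both places. The authors aligned to TAIR10, whose mitochondrial sequence was not used here, and how their counting treated reads with more than a single placement is not stated.

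The mitochondrial genes together took a larger share of the counts in *brr2a*-2 than in Col. Their counts made up 0.607%, 0.611% and 0.773% of all gene counts in the *brr2a*-2 libraries, against 0.479%, 0.396% and 0.535% in the Col libraries. The libraries did not overlap, although the lowest *brr2a*-2 value lay close to the highest Col value. The mean was 0.664% ± 0.0951 in *brr2a*-2 and 0.470% ± 0.0697 in Col (SD, n = 3 each), a difference of 0.194 percentage points and a ratio of 1.41. In these bulk samples a larger proportion of cells rich in mitochondrial RNA and more mitochondrial RNA per cell cannot be told apart.

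Leaving out the chloroplast did not change this. Of the non-chloroplast counts, mitochondrial genes took 1.09%, 1.02% and 1.44% in the *brr2a*-2 libraries, against 0.844%, 0.684% and 0.971% in the Col libraries. The mean share was 1.18% ± 0.226 in *brr2a*-2 and 0.833% ± 0.144 in Col (SD, n = 3 each), a ratio of 1.42. Here too the libraries of the genotypes were separate, and replicate 3 had the highest share within each genotype. Without *brr2a*-2 replicate 3, the difference in this share was 0.222 percentage points, against 0.351 with all libraries.

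**Figure D1:**
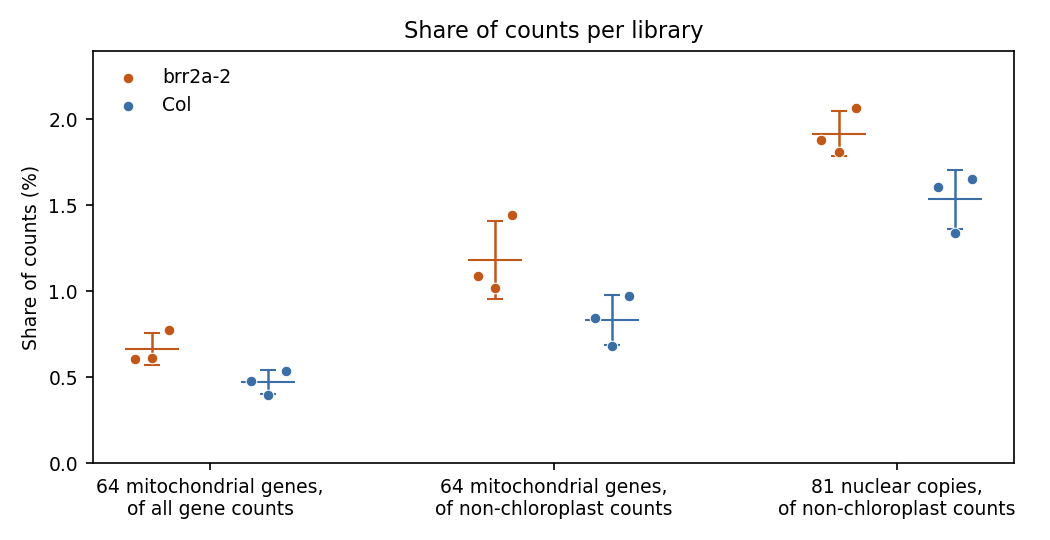
Share of counts in percent per library, with brr2a-2 in orange and Col in blue. Points are libraries, long bars the mean and error bars the SD (n = 3 each). All 3 *brr2a*-2 libraries lie above all 3 Col libraries for the 64 mitochondrial genes, of all gene counts and of non-chloroplast counts, and for the 81 nuclear copies of mitochondrial DNA that remain without AT2G07732 and 6 other chloroplast-like copies. With AT2G07732 counted, the nuclear copies overlap.

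Of the 64 genes, 50 passed the filter on low counts and were tested, and the other 14 together held no more than 0.0599% of the mitochondrial total in any library. With edgeR's quasi-likelihood test, 0 of the 50 were called, which took an adjusted p under 0.05 together with a change of 1 or more on the log2 scale. In the same test 0 of all 19121 genes were called, so percent called was 0 in either direction, and the smallest adjusted p of a mitochondrial gene was 0.164. At an unadjusted p under 0.05, 20 of the 50 were higher and 0 lower in *brr2a*-2, against 6.93% higher and 7.47% lower among all genes tested.

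The shift was broad and moderate in size. The median log2 fold change of the 50 genes was 0.53, beside −0.04 over all genes tested, and 46 of the 50 were above 0, beside 46.1% of all genes. All *brr2a*-2 libraries lay on the same side of all Col libraries for 20 of the 50, each time higher in *brr2a*-2, where 10.8% of all genes tested did so. None was lower without overlap, beside 10.2% of all genes. The 50 genes were measured in the same 6 libraries, so these counts do not amount to 50 separate observations. The median over the 50 genes of the deviation from each gene's own mean, on the log2 scale, was 0.19, 0.10 and 0.43 in the *brr2a*-2 libraries, against −0.27, −0.39 and −0.02 in the Col libraries. DESeq2 also called 0 of the 50 at both thresholds, where 1.27% of all genes were called higher and 0.92% lower. Without the fold threshold it gave 6 of the 50 an adjusted p under 0.05, all of them higher, beside 1.91% of all genes. With a RUVg factor, which removes unwanted variation, 0 of the 50 were called, beside 0.0471% of all genes.

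**Figure D2:**
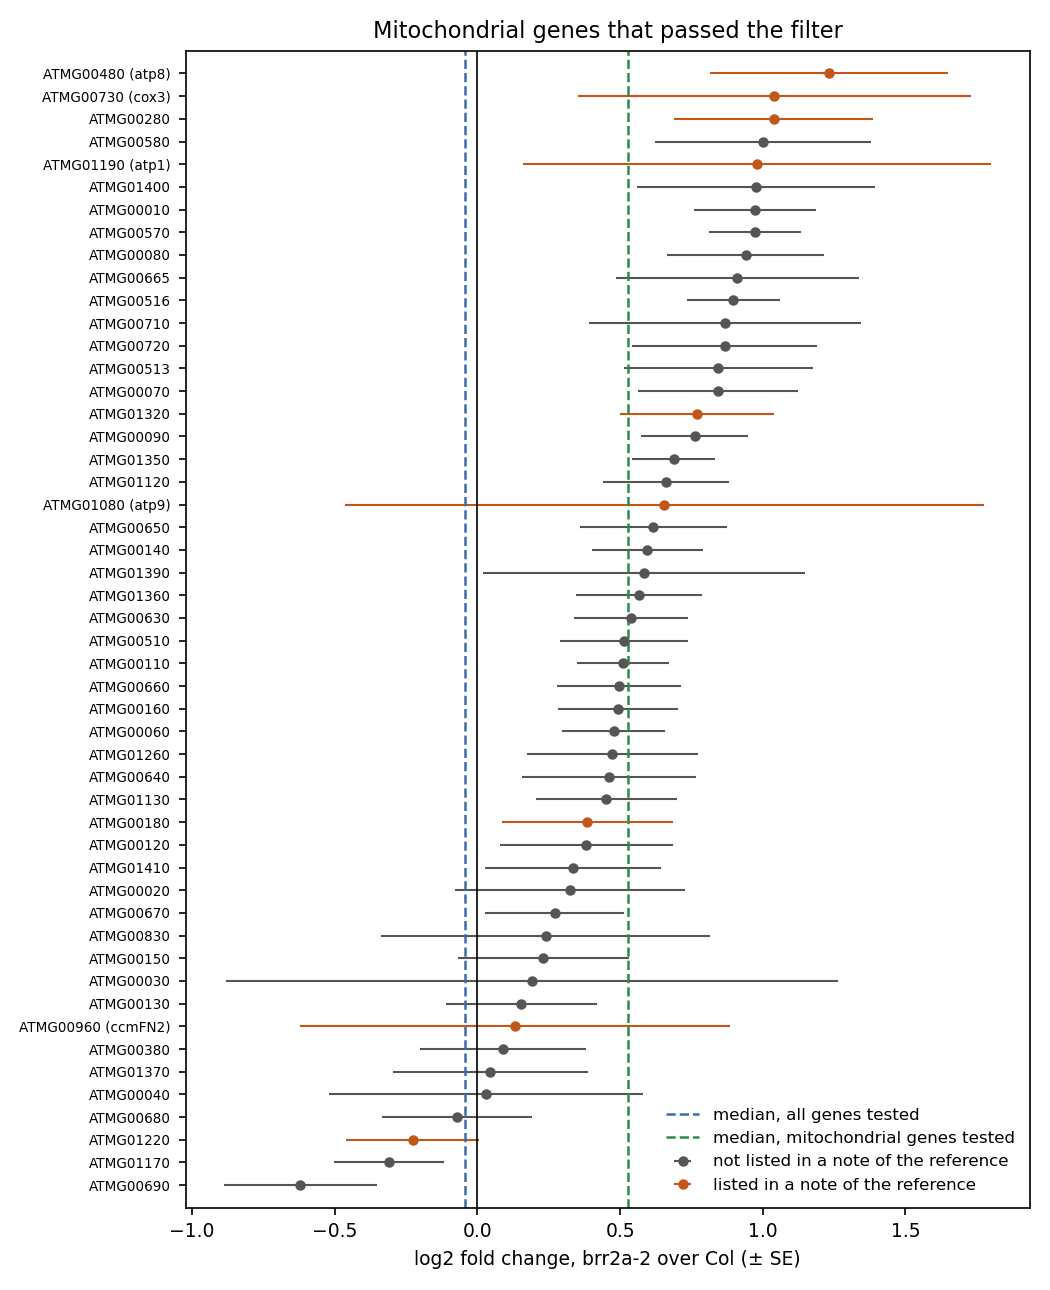
Log2 fold change of brr2a-2 over Col for each of the 50 mitochondrial genes tested, with its standard error. Orange marks genes listed in a note of the reference. The dashed lines are the medians of the mitochondrial genes, 0.53, and of all genes tested, −0.04. The values run between −0.62 and 1.23, and 46 of 50 lie above 0.

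Those 6 genes were chosen for mention after their values were seen. ATMG00570 had 22.5, 21.2 and 20.6 CPM in *brr2a*-2, against 10.3, 12.4 and 10.02 CPM in Col, a log2 fold change of 0.97 ± 0.16 (SE) whose adjusted p was 0.164 with edgeR and 0.000277 with DESeq2. ATMG00516 had 51.2, 58.0 and 66.6 CPM in *brr2a*-2, against 31.8, 33.4 and 29.2 CPM in Col. Its log2 fold change was 0.90 ± 0.16 (SE), and its adjusted p was 0.166 with edgeR and 0.000548 with DESeq2. In both genes the libraries of the genotypes were far apart. ATMG00090, ATMG01350, ATMG00010 and ATMG00080 were the others, with log2 fold changes between 0.69 and 0.97. Names were taken from notes of the reference that pair mitochondrial identifiers with gene names. None of these 6 identifiers is listed there, so their roles are not given here.

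A few genes supplied most mitochondrial counts. The 10 with the most counts held 85.0% ± 1.50 of the mitochondrial total in *brr2a*-2 and 83.6% ± 2.04 in Col (SD, n = 3 each). None of the 10 is listed in the reference notes that pair mitochondrial identifiers with gene names, so they are given by identifier only. Such a note belongs to the protein of another gene, so only identifiers with a similar protein elsewhere in the reference can be listed. Shares of counts also depend on gene length, which the files do not give, so they do not rank the genes by transcript number.

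ATMG01360 alone held 30.5%, 29.6% and 26.7% of the mitochondrial total in *brr2a*-2, against 29.2%, 30.0% and 27.3% in Col. These ranges overlap, and the part it took was nearly the same in both genotypes. Its level was 1978, 1745 and 2147 CPM in *brr2a*-2, against 1258, 1204 and 1502 CPM in Col, which do not overlap. The log2 fold change was 0.57 ± 0.22 (SE) with an adjusted p of 0.321 in edgeR.

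ATMG00070 had 728, 647 and 913 CPM in *brr2a*-2, against 305, 410 and 560 CPM in Col. It made up 11.2%, 10.99% and 11.4% of the mitochondrial total in *brr2a*-2, against 7.06%, 10.2% and 10.2% in Col, and so took a larger part in every *brr2a*-2 library. The difference was 0.84 ± 0.28 on the log2 scale (SE), with an adjusted p of 0.272 in edgeR. This gap rested partly on Col replicate 1, the lowest of the 6 libraries on both scales.

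ATMG00080 had 473, 380 and 621 CPM in *brr2a*-2, against 195, 255 and 318 CPM in Col, again without overlap. Its log2 fold change of 0.94 ± 0.27 (SE) was the largest among the 10, with an adjusted p of 0.236 in edgeR and 0.0394 in DESeq2. ATMG00090 had 701, 682 and 798 CPM in *brr2a*-2, against 406, 431 and 450 CPM in Col. This gave a log2 fold change of 0.76 ± 0.19 (SE), with an adjusted p of 0.205 in edgeR and 0.00039 in DESeq2. Both genes were separate between the genotypes, with Col replicate 1 the lowest library of each.

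ATMG00160 had 523, 476 and 608 CPM in *brr2a*-2, against 442, 323 and 377 CPM in Col, and ATMG00060 had 405, 344 and 422 CPM in *brr2a*-2, against 297, 273 and 271 CPM in Col. Their log2 fold changes of 0.49 ± 0.21 and 0.48 ± 0.18 (SE) were close to the median of the mitochondrial genes, and their libraries did not overlap. ATMG00650 also had separate libraries, at 133, 113 and 205 CPM in *brr2a*-2, against 103, 84.3 and 106 CPM in Col. On the log2 scale it differed by 0.62 ± 0.26 (SE), and by 0.33 without *brr2a*-2 replicate 3.

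The remaining genes among the 10 overlapped between the genotypes. ATMG00640 had 242, 180 and 360 CPM in *brr2a*-2, against 184, 148 and 235 CPM in Col, with a log2 fold change of 0.46 ± 0.30 (SE), which was 0.16 without *brr2a*-2 replicate 3. ATMG00020 had 277, 335 and 493 CPM in *brr2a*-2, against 242, 172 and 468 CPM in Col, with a log2 fold change of 0.32 ± 0.40 (SE), which ranged between 0.05 without Col replicate 2 and 0.85 without Col replicate 3. In ATMG00020 replicate 3 was the highest library of each genotype, by more than the genotypes differed in their means. ATMG01170, the ninth by counts, is described with the lowest genes.

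Replicate 3 stood out further in ATMG00030, which had 49.1, 32.1 and 277 CPM in *brr2a*-2, against 48.5, 19.7 and 246 CPM in Col. ATMG01390 showed it to a lesser degree, with 74.4, 74.9 and 222 CPM in *brr2a*-2, against 67.8, 43.1 and 137 CPM in Col. In both genes the spread between replicates was larger than the difference between the genotypes, and their log2 fold changes were 0.19 ± 1.07 and 0.58 ± 0.56 (SE). With single libraries left out the value ranged between −1.37 and 1.84 for ATMG00030 and between −0.15 and 1.18 for ATMG01390, so both changed sign. These 2 genes were picked out after their values were seen.

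**Figure D3:**
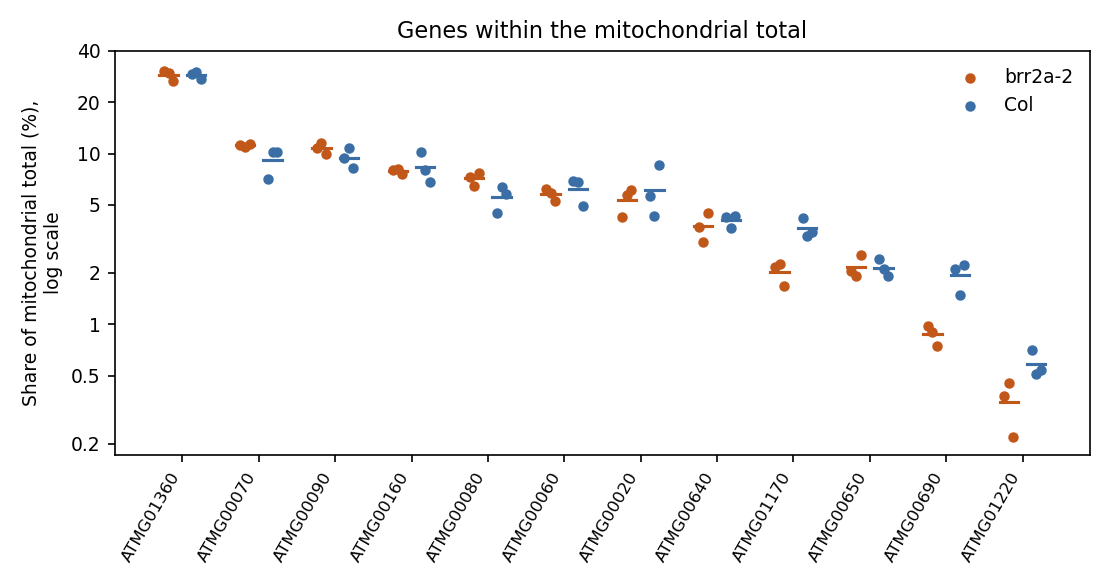
Share of the mitochondrial total in percent, on a log scale, for the 10 genes with the most counts and for ATMG00690 and ATMG01220. Points are libraries, brr2a-2 in orange and Col in blue, and bars are means. ATMG01360 takes about the same part in both genotypes, at 28.9% and 28.8%, while ATMG01170, ATMG00690 and ATMG01220 lie lower in every *brr2a*-2 library.

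When each gene was measured against the mitochondrial total, most of the difference between the genotypes was gone. With that total as library size, the median log2 fold change of the 50 genes was −0.01, and 24 of 50 were above 0. This follows from dividing by a sum that the same genes make up. Of the 50, 3 took a larger part of the total in every *brr2a*-2 library than in any Col library (ATMG00070, ATMG00080 and ATMG00010), beside 0.761% of all genes tested on this scale. Another 6 took a smaller part in every *brr2a*-2 library, beside 41.2% of all genes. The scale itself lowers the 0.761% and raises the 41.2%, since the median over all genes on it was −0.61. Neither share is therefore a baseline for the mitochondrial genes.

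ATMG00690 was furthest below the other mitochondrial genes. It held 0.983%, 0.901% and 0.751% of the mitochondrial total in *brr2a*-2, against 2.104%, 1.49% and 2.22% in Col, without overlap. On this scale its log2 fold change was −1.14 ± 0.27 (SE), with an adjusted p of 0.0576 in edgeR. On the CPM scale it had 63.9, 53.0 and 60.4 in *brr2a*-2, against 90.7, 59.6 and 122 in Col, which overlap, and the log2 fold change was −0.62 ± 0.27 (SE) with an adjusted p of 0.352. Without Col replicate 3 that log2 fold change was −0.33.

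ATMG01170 held 2.16%, 2.25% and 1.68% of the mitochondrial total in *brr2a*-2, against 4.17%, 3.31% and 3.48% in Col. Within the total the log2 fold change was −0.85 ± 0.26 (SE), with an adjusted p of 0.0739 in edgeR. Its CPM overlapped, at 140, 132 and 135 in *brr2a*-2, against 180, 133 and 191 in Col, and the log2 fold change on that scale was −0.31 ± 0.19 (SE), or −0.19 without Col replicate 3. The genotypes were thus separate for its part of the total and not for its level.

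ATMG01220, which the reference lists as an unknown protein with a counterpart on chromosome 2, held 0.382%, 0.450% and 0.219% of the mitochondrial total in *brr2a*-2, against 0.707%, 0.512% and 0.539% in Col. Its log2 fold change was −0.74 ± 0.31 (SE) within the total, with an adjusted p of 0.125, and −0.23 ± 0.23 (SE) on the CPM scale, or −0.07 without *brr2a*-2 replicate 3. These 3 were the tested mitochondrial genes with an unadjusted p under 0.05 and a lower value in this fit, beside 35.9% of all genes. At that p 0 were higher, beside 0.828% of all genes, and the scale shifts both shares. ATMG00680, ATMG00130 and ATMG00380 were the others with a smaller part in every *brr2a*-2 library. ATMG00680, with 3.00, 2.85 and 3.67 CPM in *brr2a*-2 and 2.96, 2.79 and 4.27 CPM in Col, had a log2 fold change of −0.07 ± 0.26 (SE). ATMG00040 completed the 5 lowest on the CPM scale, at 0.03 ± 0.55 (SE), with 1.43, 3.04 and 1.61 CPM in *brr2a*-2 and 0.936, 3.54 and 1.53 CPM in Col.

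Of the 5 genes with the highest log2 fold changes, 4 are named by the reference. ATMG00480, for subunit 8 of ATP synthase (*atp8*), was first at 1.23 ± 0.42 (SE), with an adjusted p of 0.274 in edgeR. It had 8.49, 6.42 and 14.9 CPM in *brr2a*-2, against 3.02, 3.21 and 6.49 CPM in Col, and these overlap narrowly. Without *brr2a*-2 replicate 3, its log2 fold change was 0.82. Its counterpart on chromosome 2, AT2G07707, held 98.9% of the counts of the pair and had a log2 fold change of 0.25 ± 0.23 (SE).

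ATMG00280, a fragment that the reference names for the large subunit of RuBisCO, a chloroplast enzyme, had 1.94, 1.35 and 2.28 CPM in *brr2a*-2, against 0.695, 1.02 and 1.00 CPM in Col, without overlap. The fitted log2 fold change was 1.04 ± 0.35 (SE), with an adjusted p of 0.273. Its counterpart on chromosome 2, AT2G07732, held 99.99% of the counts of the pair and had a log2 fold change of −0.14 ± 0.33 (SE). ATMG00580, which the notes of the reference do not list, had 35.6, 28.045 and 59.5 CPM in *brr2a*-2, against 17.5, 13.8 and 30.3 CPM in Col. Its libraries overlapped, and its log2 fold change was 1.00 ± 0.38 (SE). Without *brr2a*-2 replicate 3 it was 0.63. Replicate 3 was again the highest in both genotypes.

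ATMG00730, for subunit 3 of cytochrome c oxidase (*cox3*), had 18, 25 and 12 counts in *brr2a*-2, against 3, 16 and 10 counts in Col. ATMG01190, for the alpha subunit of ATP synthase (*atp1*), had 30, 35 and 17 counts in *brr2a*-2, against 2, 17 and 24 counts in Col. Their log2 fold changes of 1.04 ± 0.69 and 0.98 ± 0.82 (SE) rested on Col replicate 1. Without that library they were 0.50 and 0.39. The counterparts on chromosome 2, which held nearly all counts of each pair, had 0.41 ± 0.24 for *cox3* and 0.29 ± 0.22 for *atp1* (SE). ATMG01080, for *atp9*, had 111, 132 and 110 counts in *brr2a*-2, against 0, 129 and 101 counts in Col. The 0 was again in Col replicate 1, the deepest library, where it allows up to 3 counts or 0.0906 CPM.

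For the genes named through the notes, the counts lay almost wholly under other identifiers. A name came only with a similar nuclear gene, so these genes do not stand for all mitochondrial genes. Every one of the 45 mitochondrial identifiers listed in the notes is paired there with at least 1 nuclear gene on chromosome 2, in 46 pairs, and in all 46 the nuclear identifier held more counts. Of the 45 identifiers, 17 were among the 64 described here and 19 had 0 counts in every library. The 17 made up 1.29% ± 0.320 of the mitochondrial total in *brr2a*-2 and 1.38% ± 0.167 in Col (SD, n = 3 each).

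Cytochrome b (*cob*), the mitochondrial subunit of complex III, had 0 counts under ATMG00220 in all 6 libraries, which allows up to 3 counts in each. Its paired nuclear identifier AT2G07727 had 46378, 38036 and 36941 counts in *brr2a*-2 and 39497, 28688 and 33165 counts in Col. For *atp1*, AT2G07698 had 86982, 82839 and 71572 counts in *brr2a*-2 and 105359, 66549 and 66423 counts in Col. For *cox3*, AT2G07687 had 33719, 27728 and 30948 counts in *brr2a*-2 and 32990, 22885 and 26570 counts in Col. The nuclear identifier held 99.97% of the counts of the *atp1* pair and 99.95% of those of the *cox3* pair.

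The share was 98.6% for *atp9*, whose sequence is shown above and whose nuclear identifier AT2G07671 had 6281, 6100 and 6831 counts in *brr2a*-2 and 10037, 6666 and 6039 counts in Col. For *ccmFN2* it was 97.7%. The lowest shares were 54.6% for ATMG01220 and 85.4% for ATMG01320, which carries part of subunit 2 of complex I. ATMG01320 had 31.4, 46.7 and 34.0 CPM in *brr2a*-2, against 14.8, 26.7 and 24.3 CPM in Col, a log2 fold change of 0.77 ± 0.27 (SE). Levels of the genes with a copy are therefore uncertain under either identifier, and which genome the reads came from was not tested.

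**Figure D4:**
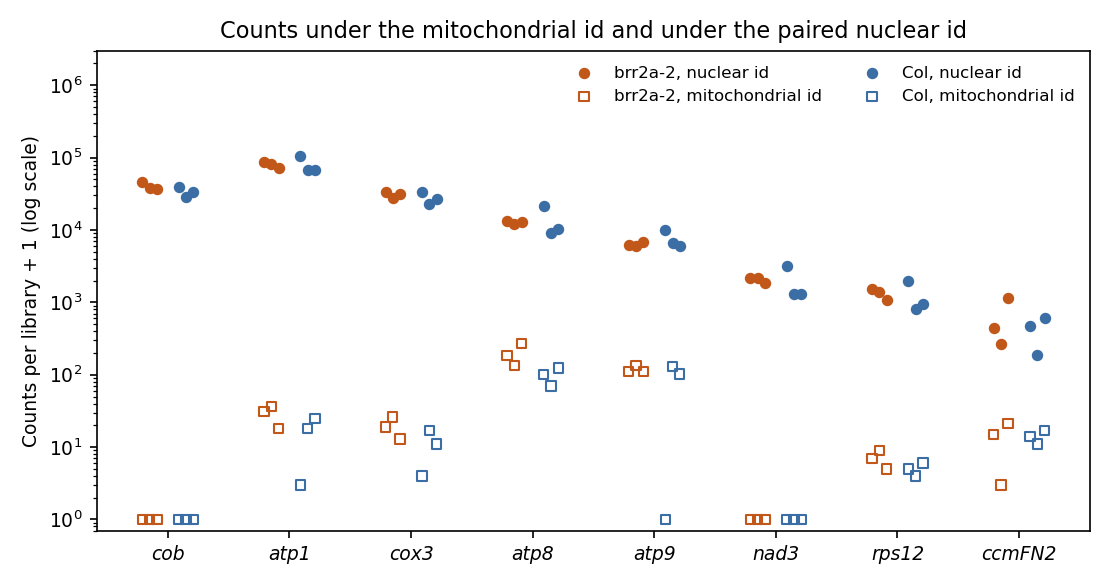
Counts per library plus 1, on a log scale, for 8 named genes. Filled circles are counts under the nuclear identifier on chromosome 2 and open squares counts under the mitochondrial identifier, with brr2a-2 in orange and Col in blue. For *cob* and *nad3* the mitochondrial identifier is at 0 in all 6 libraries, and every nuclear identifier lies far above its mitochondrial one.

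The nuclear genes that match the mitochondrial genome were therefore examined beside the 64. With at least 90% identity over at least 80% of the gene, 88 nuclear genes matched, 86 of them on chromosome 2. All 88 together took 3.64%, 3.52% and 3.59% of non-chloroplast counts in *brr2a*-2, against 3.08%, 3.78% and 3.38% in Col, which overlap. The gene with by far the most counts among them was AT2G07732, the counterpart of the RuBisCO fragment, with 224031, 202209 and 150730 counts in *brr2a*-2 and 245885, 304923 and 183254 counts in Col. It matches the chloroplast genome over 76.8% of its length, and 6 others do so over more than 80%. Without these 7, the remaining 81 took 1.88%, 1.81% and 2.06% of non-chloroplast counts in *brr2a*-2, against 1.61%, 1.34% and 1.65% in Col, without overlap. That group is set by a limit of 50% of the length, chosen after the counts were seen. With a limit of 80%, which keeps AT2G07732, the libraries overlapped, at 3.56% ± 0.0578 in *brr2a*-2 and 3.39% ± 0.350 in Col (SD, n = 3 each), so the separation of the nuclear copies rests on leaving out that gene.

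Among the 45 tested nuclear genes that the notes pair with a mitochondrial identifier, the median log2 fold change was 0.47 and 44 were above 0, beside −0.04 and 46.1% over all genes tested. At an unadjusted p under 0.05 in edgeR, 19 were higher and 0 lower, beside 6.93% and 7.47% of all genes. None was called by edgeR, while DESeq2 called 1, AT2G07749, beside 1.27% of all genes called higher by DESeq2. They ran between −0.14 and 1.36. The nuclear identifier for *cob* had 2141, 1836 and 2055 CPM in *brr2a*-2, against 1193, 1335 and 1749 CPM in Col, a log2 fold change of 0.50 ± 0.24 (SE) with an adjusted p of 0.394 in edgeR and 0.221 in DESeq2. For the first part of *nad1*, a subunit of complex I, AT2G07785 had 83.6, 92.2 and 94.1 CPM in *brr2a*-2, against 49.1, 50.6 and 57.1 CPM in Col. Its log2 fold change was 0.78 ± 0.15 (SE) with an adjusted p of 0.176 in edgeR and 0.000463 in DESeq2, and the libraries were well apart. The ATP synthase genes differed less, with 0.29 ± 0.22 for *atp1*, 0.28 ± 0.21 for *atp6*, 0.25 ± 0.23 for *atp8* and 0.05 ± 0.19 for *atp9* (SE).

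Nuclear genes whose products work in mitochondria had list medians below that of the mitochondrial genes, though single genes lay above it. Of 11 genes for mitochondrial transcription, RNA turnover and genome maintenance, 10 were above 0, beside 46.1% of all genes tested, with a median log2 fold change of 0.29, and 0 were called by edgeR or DESeq2. At an unadjusted p under 0.05 in edgeR, 4 were higher and 0 lower, beside 6.93% and 7.47% of all genes. The libraries did not overlap for 6 of the 11, each higher in *brr2a*-2, beside 10.8% of all genes tested. *RPOTm* (AT1G68990), a phage-type RNA polymerase of mitochondria, had 46.3, 50.9 and 38.5 CPM in *brr2a*-2, against 33.0, 27.6 and 29.1 CPM in Col, a log2 fold change of 0.60 ± 0.17 (SE) with an adjusted p of 0.232. *RPOTmp* (AT5G15700), the polymerase shared by mitochondria and chloroplasts, had 34.7, 43.7 and 29.8 CPM in *brr2a*-2, against 25.1, 21.6 and 22.4 CPM in Col, with 0.65 ± 0.19 (SE) and an adjusted p of 0.235. Both were higher in every *brr2a*-2 library.

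The other 2 of the 4 were *POL1A*, an organellar DNA polymerase, at 0.57 ± 0.21 (SE), and the mitochondrial polynucleotide phosphorylase AT5G14580, which degrades RNA, at 0.67 ± 0.28 (SE). Of 11 tested genes for splicing of group II introns, 3 were above 0, beside 46.1% of all genes tested, with a median of −0.04. *ABO5* alone had an unadjusted p under 0.05 in edgeR, at 0.48 ± 0.20 (SE), beside 6.93% higher and 7.47% lower of all genes. Libraries did not overlap for *ABO5*, higher in *brr2a*-2, and for *RUG3*, lower, beside 10.8% and 10.2% of all genes. The 19 nuclear partners of the mitochondrial subunits, which are subunits of complexes I, III and IV and of ATP synthase and the cytochromes c, had a median of −0.02 and a range between −0.30 and 0.15. None of the 19 had an unadjusted p under 0.05, beside the same shares of all genes. The complex I gene AT1G79010 alone had libraries without overlap, lower in *brr2a*-2. The median of the 19 was close to that of all genes tested, −0.04, and a test of the lists against each other was not made.

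**Figure D5:**
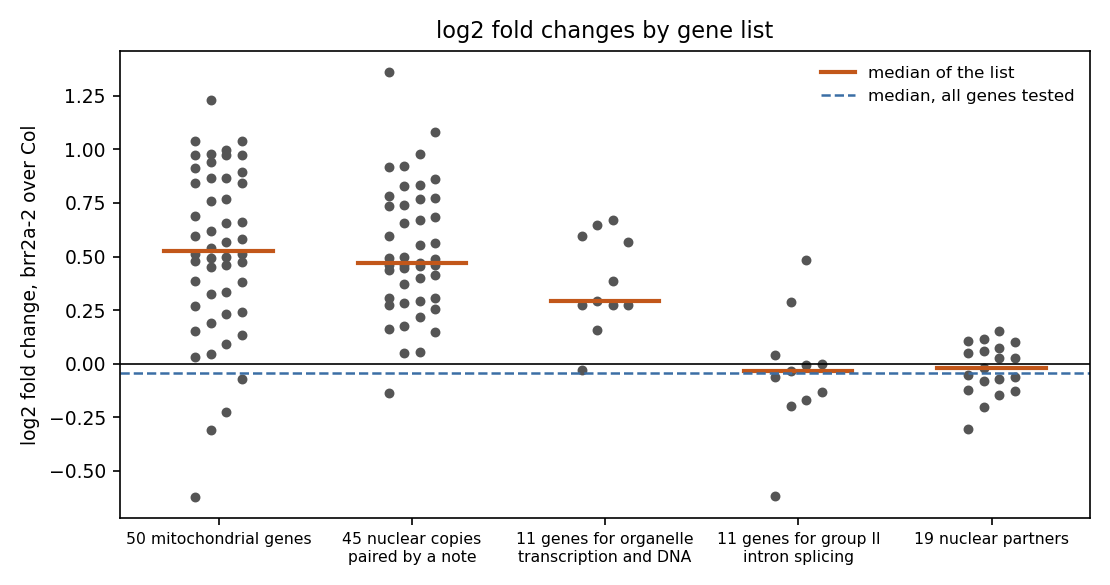
Log2 fold change of brr2a-2 over Col for the genes of 5 lists, one point per gene, with the median of each list as a bar and the median of all genes tested, −0.04, as a dashed line. The medians were 0.53 for 50 mitochondrial genes, 0.47 for 45 nuclear copies, 0.29 for 11 genes of organelle transcription, RNA turnover and DNA maintenance, −0.04 for 11 group II splicing genes and −0.02 for 19 nuclear partners.

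Values of other tissues and organelles beside these results were as follows. The median log2 fold change of the 112 chloroplast genes tested was 0.32, with 87 above 0. The 5 tested root markers ran between 0.20 and 0.96 and all lay above 0, beside 46.1% of all genes tested. The remaining root marker, *NRT2.1*, did not pass the filter, with 0 counts in every *brr2a*-2 library and 25, 22 and 3 counts in Col. The 3 leaf markers ran between −0.17 and 0.99, and the 5 markers of dividing cells ran between −0.67 and −0.05. None of these markers was called, and their part in the mitochondrial values was not tested.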

How the data were processed

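RNA was depleted of ribosomal RNA with a kit for plant leaf and sequenced from 3 *brr2a*-2 and 3 Col libraries. Per the submitters' processing notes, reads were trimmed with Trimmomatic 0.32, aligned to TAIR10 with TopHat2 and counted with HTSeq. The authors deposited raw counts per gene without normalization. The strand setting, and the treatment of reads with more than 1 placement, are not given in the sources used here, so overlapping and near-identical genes are uncertain. The deposited intron counts held no mitochondrial rows and were not used.

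The whole gene table was fitted in R 4.3.3 with edgeR 4.0.16 (filterByExpr at a minimum count of 10, TMM, quasi-likelihood F-test with genotype as the single term, Benjamini-Hochberg adjustment over 19121 genes). Genes were called at an adjusted p under 0.05 together with a change of 1 or more, up or down, on the log2 scale. DESeq2 1.42.0, other scalings, no filter, a RUVg factor from 5000 genes, a replicate block and leaving out each library were alternatives. The procedure was run on simulated counts with a single spread setting for all genes. That run does not measure its power in these libraries. Replicates differed by more than sampling noise, with a chi-square per gene between 27.3 and 113.

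Shares are sums of counts over the mitochondrial genes, given without a test. SD is between 3 libraries and SE comes from the fit. Nuclear copies and gene names came from TAIR10.1 with blastn 2.17.0 and from protein notes that name a mitochondrial identifier as best match. These notes list 45 identifiers and belong to proteins, so they cannot name a ribosomal RNA. Symbols were given where the copy of a mitochondrial gene lay in the nuclear gene of the note. Genes were named if they were among the 10 with most counts or the 5 highest or 5 lowest log2 fold changes, and others are given as chosen after their values were seen. The members and lists were chosen with earlier results of these data known.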

Additional observations from a re-analysis of the deposited data

How the results depend on the processing

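The difference in the mitochondrial share of all gene counts was 0.194 percentage points, and with each library left out in turn it lay between 0.139 and 0.226. For the share of non-chloroplast counts it was 0.351, and between 0.222 and 0.433. Counting all 88 nuclear copies with the mitochondrial genes gave differences of 0.280 and 0.521 percentage points. Counting the 81 without the chloroplast-like copies, an alternative chosen after seeing the data, moved them to 0.406 and 0.735, and with the 80% limit they were 0.278 and 0.518. The median log2 fold change of the genes tested was 0.53 and ranged between 0.42 and 0.70 when single libraries were left out. It changed sign only with the mitochondrial total as library size, to −0.0125, since that total is made of the same genes. The count of called mitochondrial genes was 0 in the main fit and in all alternatives, DESeq2 included. With the replicate block, 0 were called and the median was 0.54. Deviations of libraries with the same replicate number correlated at 0.04, 0.21 and 0.42 over all genes tested, where Col replicate 1 correlated best with *brr2a*-2 replicate 2, so the numbers were not taken as pairs. Over the 50 mitochondrial genes the correlations were 0.173, 0.663 and 0.638, each Col library correlating best with its own number. ATMG00020, ATMG00640, ATMG00580 and ATMG01390, whose libraries overlap, were higher in *brr2a*-2 at every replicate number, as were ATMG00030 and ATMG00480. How many of all genes were so was not counted, and with the numbers not taken as pairs nothing is drawn from it. Over all genes, 419 were called by DESeq2, 9 with the RUVg factor, 3 without the filter and 2 without Col replicate 1, beside 0 in the main fit; the cause was not tested. Of the genes described, ATMG00680, ATMG00040, ATMG00030 and ATMG01390 changed sign when single libraries were left out. Leaving out ribosomal RNA genes was not run because the notes belong to proteins and cannot name one. Any such rows therefore remain in the mitochondrial total. Mitochondrial introns could not be fitted because the intron counts hold none.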

Other observations

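Values of some further identifiers are given here, and the nuclear ones among them belong to the 45 tested above. ATMG01110, which the reference names for an RNA-dependent RNA polymerase of mitoviruses, did not pass the filter, with 9, 9 and 4 counts in *brr2a*-2 and 3, 2 and 3 counts in Col. Its paired nuclear identifier AT2G07749 had 350, 318 and 369 counts in *brr2a*-2 and 216, 208 and 159 counts in Col, a log2 fold change of 1.08 ± 0.21 (SE) for which edgeR gave an adjusted p of 0.176 and DESeq2 an adjusted p of 0.00372. ATMG00285, which the notes of the reference do not list, also did not pass the filter. It had 12, 10 and 7 counts in *brr2a*-2 and 0, 1 and 3 counts in Col. The nuclear identifiers for ribosomal protein S7 (*rps7*) and for *ccmC* had log2 fold changes of 0.86 ± 0.38 and 0.92 ± 0.22 (SE). The libraries overlapped for *rps7* and did not for *ccmC*. ATMG00900, paired with the *ccmC* identifier, is also paired with AT2G07681, which had 0.67 ± 0.22 (SE) without overlap. These were picked after their values were seen.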
